A study of Mus musculus with 16 samples.

Results

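The Wnt signalling pathway genes described here are 57 protein-coding genes, chosen by name. Of these, 39 were among the 10736 protein-coding RNA (pcRNA) names with at least 1 significant RNA–DNA interaction pair in either library, and 18 were listed in neither. They comprise 22 ligand genes with their processing and antagonist genes, 17 receptor genes and 18 genes of cytoplasmic or nuclear parts. A pair was counted for a gene when the name of its RNA tag was that gene. Mouse embryonic stem cells (mESCs) of the PGK12.1 line were used, grown in serum with Leukemia Inhibitory Factor and crosslinked with 1% formaldehyde, with no other treatment in either group. In RADIP, an RNA is ligated through a bridge adaptor to the chromatin DNA beside it in the nucleus, and the joined molecules are then captured with an antibody, here against H3K27me3, the histone mark that Polycomb repressive complex 2 deposits. The Input group was a part of the same lysate, set aside before antibody selection. The labels list 8 libraries for each group, but the authors merged them, so each group has 1 table and no spread between replicates can be given. Every comparison below is therefore between 2 merged tables, and each interval covers counting error only.

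The Input table held 1305107 significant pairs and the H3K27me3-RADIP table held 1415135. Each table lists only combinations of an RNA and a 25-kb bin of DNA that passed a *q*-value limit of 0.1, and the smallest listed combination had 7 pairs. A gene that is not listed thus had no combination past this limit, which does not mean that it had no reads. Pair counts of different genes are given as counts, and levels are ranked between genes only as pairs per kb of gene, because a long gene offers more RNA. In such bulk samples, fewer cells with an RNA and less of that RNA per cell cannot be told apart. As a check of the cell type, 6 of 12 embryonic stem cell marker RNAs were listed in Input with 3138 pairs and 8 of 12 in H3K27me3-RADIP with 3348. *Esrrb* alone gave 2388 of these Input pairs and 2500 of these H3K27me3-RADIP pairs, so the sums rest mostly on this gene. *Pou5f1*, *Nanog*, *Dppa4* and *Tdgf1* were listed in neither. Marker RNAs of other cell types were few: primitive endoderm markers had 54 Input pairs and 78 H3K27me3-RADIP pairs, neural progenitor markers had 11 and 33, trophectoderm markers 0 and 13, and fibroblast feeder markers 0 and 7.

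Wnt proteins are secreted, lipid-modified signals. They bind Frizzled receptors together with Lrp5 or Lrp6, and the signal stops a cytoplasmic complex of Axin, Apc and Gsk3 from marking beta-catenin for destruction, so that beta-catenin reaches the nucleus and acts with Tcf and Lef factors on target genes. Ror and Ryk receptors carry signals that do not need beta-catenin. In mESCs the pathway favours self-renewal, and many genes of developmental signals are known to carry H3K27me3 at their promoters in these cells.

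Of the 57 genes, 35 were listed in Input and 36 in H3K27me3-RADIP, and 32 were listed in both. Together they had 9440 pairs in Input, which is 0.723% of the table (95% Wilson interval 0.709 to 0.738), and 10031 pairs in H3K27me3-RADIP, which is 0.709% (0.695 to 0.723). These intervals overlap. The nuclear genes held most of the pairs in both libraries, with 5242 and 5510, whereas the 16 Wnt ligand genes held 163 and 223. All pairs of the members were *cis* pairs, with RNA and DNA tag on the same chromosome, and none was a *trans* pair in either library. Input held 428 RNA–bin combinations of the members, H3K27me3-RADIP held 478, and 344 were shared, or 80.4% of the Input combinations and 72.0% of the H3K27me3-RADIP combinations. Over all pcRNAs these shares were 76.7% and 67.1%.

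Only Input listed *Wnt2*, *Wnt11* and *Porcn*, which is 3 of the 39 members listed in either library, and 10.5% of all pcRNA names were listed only in Input. Only H3K27me3-RADIP listed *Wnt3a*, *Wnt5a*, *Fzd5* and *Apc2*, which is 4 of 39, and for all pcRNA names this share was 13.5%. The 18 members listed in neither were *Wnt1*, *Wnt2b*, *Wnt6*, *Wnt8a*, *Wnt10a*, *Wnt10b*, *Fzd1*, *Fzd2*, *Fzd3*, *Fzd4*, *Fzd7*, *Fzd8*, *Fzd9*, *Fzd10*, *Dvl3*, *Dkk1*, *Sfrp5* and *Wif1*. These are mostly short genes, with a median length of 5.97 kb against 47.0 kb for the 39 listed members.

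**Figure D1:**
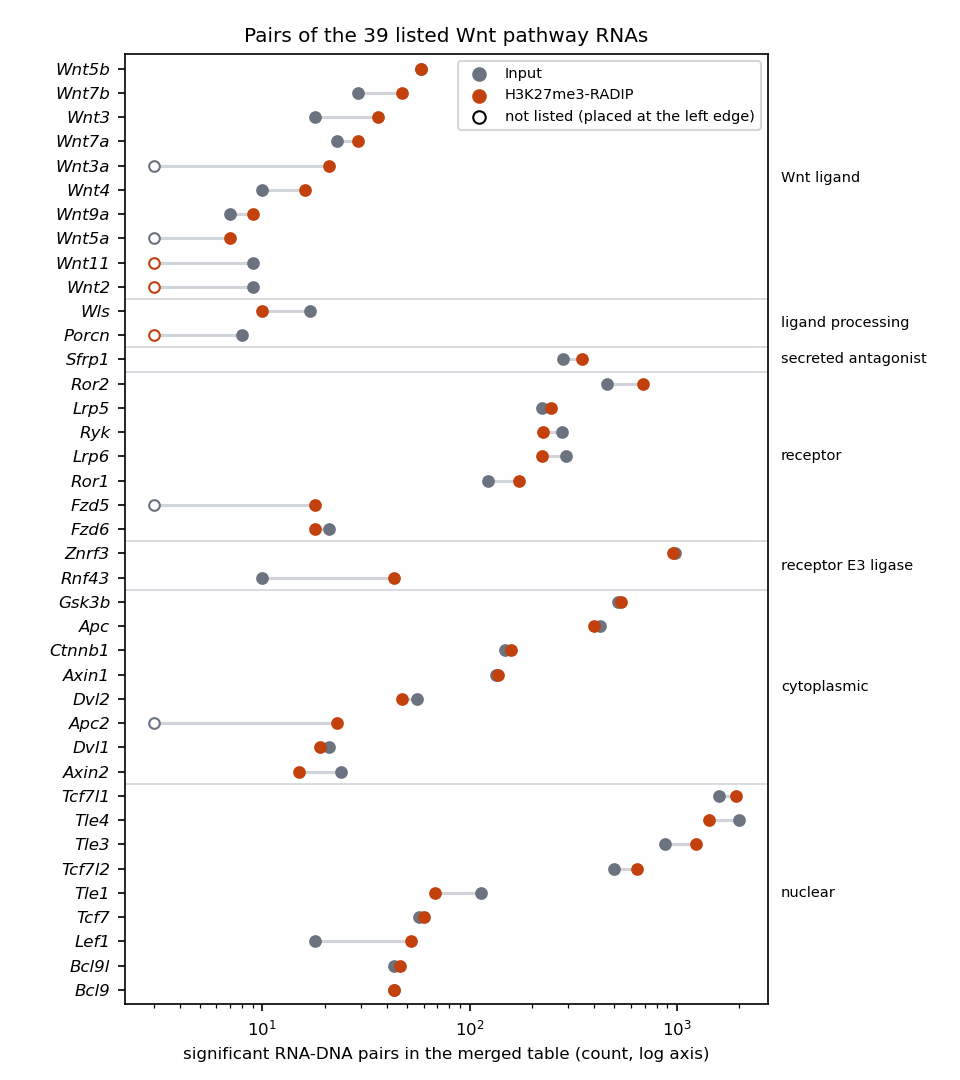
Significant RNA–DNA pairs of each of the 39 listed Wnt pathway RNAs in Input (grey) and H3K27me3-RADIP (orange), on a log axis and ordered by role. Open circles at the left edge mark a library that does not list the gene. The genes with the most pairs, *Tcf7l1* and *Tle4*, are nuclear, and the Wnt ligand RNAs lie below 60 pairs in both libraries.

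Among the 32 shared members, 3 were called higher in H3K27me3-RADIP (*Ror2*, *Lef1* and *Rnf43*) and 1 was called lower (*Tle1*), by a 2-sided exact negative binomial test with Benjamini–Hochberg adjustment over all 8158 shared pcRNAs. The test called 6.77% of all shared pcRNAs higher and 7.69% lower, so the members' counts lay near the background. By the fold limit alone, a log2 fold change of at least 0.5 in size, 6 members were above it and 4 below, against 20.2% and 21.9% of all shared pcRNAs. The median log2 fold change of the 32 members was 0.05, beside -0.01 over all shared pcRNAs. All 4 calls rest on an assumed biological coefficient of variation of 0.1, since the merged tables give none: with 0.2 no member was called, and 108 of all 8158 shared pcRNAs were. When only RNA–bin combinations listed in both libraries were counted, which was tried once the data had been seen, 0 of 31 members and 39 of all 7806 pcRNAs were called. The log2 fold changes in that count were 0.40 for *Ror2* and -0.55 for *Tle1*.

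**Figure D2:**
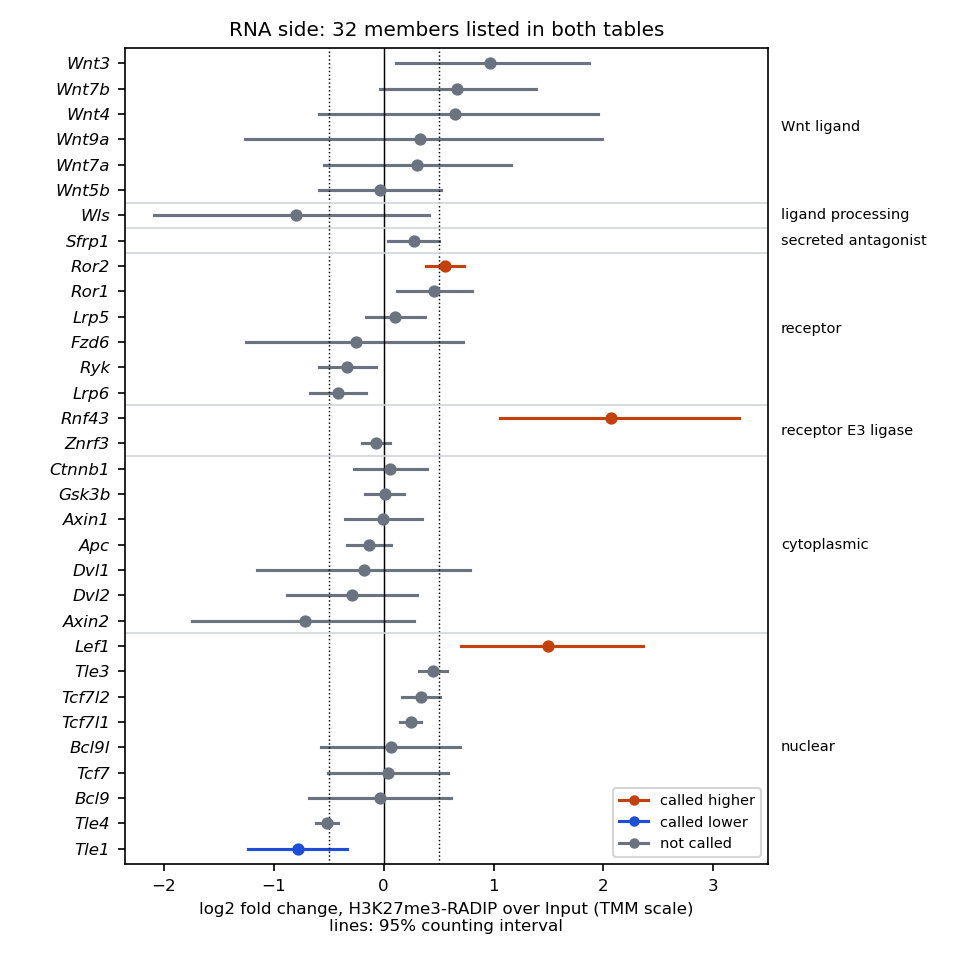
The log2 fold change of pairs (H3K27me3-RADIP over Input, TMM scale) for the 32 members listed in both tables, with 95% counting intervals; dotted lines mark 0.5 and -0.5. *Rnf43*, *Lef1* and *Ror2* were called higher and *Tle1* lower; the intervals of most other members include 0.

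The Wnt ligand RNAs had few pairs in both libraries, and none of the 6 that were shared was called. Per kb of gene, those listed in Input had from 0.216 pairs (*Wnt2*) to 0.617 (*Wnt7b*) there. *Wnt5b*, which signals mainly without beta-catenin, had the most pairs of them, 58 in each library (log2 fold change -0.03, counting interval -0.58 to 0.52). *Wnt7b* had 29 Input pairs and 47 H3K27me3-RADIP pairs (log2 fold change 0.66, counting interval -0.03 to 1.38). *Wnt3*, which is needed for the primitive streak to form, had 18 and 36 pairs (0.97, interval 0.11 to 1.87, adjusted p = 0.203 in the exact test). In 5 of the 6 the fitted change was above 0, but no call was made.

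The remaining shared ligand RNAs, *Wnt7a*, *Wnt4* and *Wnt9a*, had 7 to 23 pairs in Input and 9 to 29 in H3K27me3-RADIP. *Wnt3a*, a canonical ligand used to sustain mESCs in culture, was not listed in Input and had 21 pairs over 2 bins in H3K27me3-RADIP. *Wnt5a* was not listed in Input and had 7 pairs in H3K27me3-RADIP. *Wnt2* and *Wnt11* each had 9 pairs in Input and were not listed in H3K27me3-RADIP. No listed pair of any Wnt ligand RNA lay beyond 100 kb in either library. The tags of a pair were a median of 1.48 kb apart in Input, compared with 1.77 kb in H3K27me3-RADIP. With so few pairs, a distant combination could hardly pass the listing limit, so these values do not measure how far the RNA reached. *Dvl2*, a cytoplasmic gene with 56 and 47 pairs, likewise had none beyond 100 kb.

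Of the ligand-processing genes, *Wls*, which carries Wnt proteins to the cell surface, had 17 Input pairs and 10 H3K27me3-RADIP pairs, in 1 bin in each library that the other did not list. *Porcn*, the enzyme that attaches the lipid, had 8 pairs in Input only. Among the secreted antagonists, *Sfrp1* alone was listed, with 284 Input pairs and 351 H3K27me3-RADIP pairs (log2 fold change 0.27, interval 0.04 to 0.50, not called). Per kb of gene this was 7.45 and 9.21 pairs, the highest level of any member outside the nuclear group.

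While no ligand RNA was called, the H3K27me3-RADIP table listed more RNA of other genes at the chromatin of the Wnt ligand genes than the Input table did. DNA tags of any RNA in the 25-kb bins that overlap the 16 ligand genes numbered 946 in Input and 2161 in H3K27me3-RADIP (log2 ratio 1.11, counting interval 1.00 to 1.23, normalised over all bins). Leaving out each gene's own RNA gave a log2 ratio of 1.28. Of the 26 ligand-gene bins that could be tested, 15 were called higher and 0 lower, beside 6.73% and 5.24% of all 37021 shared bins in the exact test. Bins of the 9 cytoplasmic genes had 1101 and 971 tags (log2 ratio -0.26, interval -0.39 to -0.13, but 0.08 when each gene's own RNA was left out). Bins of the nuclear genes had 2712 and 2612 tags (-0.13, interval -0.21 to -0.05, but 0.28 without each gene's own RNA). Receptor bins had 1418 and 1499 tags (0.00, interval -0.10 to 0.11).

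When tags of each gene's own RNA were left out and the rest were summed over each gene, 14 ligand loci could be tested, and 8 were called higher and 0 lower. This test was added once the data had been seen, and it called 13.7% of all 11757 gene loci higher and 11.9% lower. The median log2 fold change of the ligand loci was 0.99, beside -0.03 over all loci, and all 14 lay above 0. These calls rest on the assumed variation of 0.1, and 6 loci were called with 0.2. With 0.4 none of the ligand loci and none of all 11757 loci was called. The loci are not all independent: *Wnt1* and *Wnt10b* share a bin, as do *Wnt6* and *Wnt10a*, and *Wnt3a* and *Wnt9a* lie in adjoining bins. When the RNA with the most tags in H3K27me3-RADIP was left out at each locus, 10 of the 16 ligand loci still had Input tags, and these 10 had more in H3K27me3-RADIP. At *Wnt9a* and *Wnt6* the RNA left out was not listed in Input, so all 16 and 22 of their Input tags stayed. They came from *Mprip* at *Wnt9a* and from *Epha4* and *Ttll4* at *Wnt6*. *Wnt1*, *Wnt8a* and *Wnt10b* were left with tags in H3K27me3-RADIP only and *Wnt2b* with none in either library, while *Wnt10a* had no listed Input tags to begin with.

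Much of this difference lay in combinations that only 1 of the tables lists. Counting only RNA–bin combinations listed in both, which was likewise added once the data had been seen, 13 ligand loci could be tested, and 2 were called higher (*Wnt3* and *Wnt7b*) and 0 lower, beside 0.29% and 0.168% of all 10697 gene loci. Their median log2 fold change was then 0.62, beside -0.01 over all loci. The value was above 0 in 10 of the 13 and below it at *Wnt3a* (17 and 15 tags), *Wnt4* (37 and 35) and *Wnt9a* (16 and 12). All tags at the ligand genes numbered 858 and 1425 in this count (log2 ratio 0.70, interval 0.58 to 0.83).

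The *Wnt3* locus had the smallest adjusted p of the 8. It had 77 DNA tags of other RNAs in Input and 285 in H3K27me3-RADIP (3.19-fold, log2 fold change 1.68, interval 1.31 to 2.06). The RNA with the most tags there was that of the neighbouring *Nsf*, a membrane fusion ATPase, with 69 tags in Input and 191 in H3K27me3-RADIP. *Kansl1* with 47 tags and *Plekhm1* with 29 were the next in H3K27me3-RADIP and were not listed there in Input, where *Bcas3* had 8. In combinations listed in both tables, the *Nsf* tags alone were left (log2 fold change 1.38, adjusted p = 0.00379 in the exact test). All 3 bins of the gene were called higher.

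The *Wnt7a* locus had 122 and 310 such tags (2.19-fold, adjusted p = 0.000287 in the exact test), led by *Iqsec1* with 63 and 126 tags, *Slc6a6* with 32 and 54, and *Magi1* with 16 and 40. *Wnt7a* is active in limb and nervous system development. *Wnt7b* had 80 and 246 tags (2.65-fold), of which *Atxn10* gave 72 and 162, *Tbc1d22a* 8 and 19, and *Fbln1* 39 in H3K27me3-RADIP only. In combinations listed in both, *Wnt7b* kept a log2 fold change of 1.08 (adjusted p = 0.061 in the exact test). *Wnt5b* had 196 and 397 tags (1.75-fold, adjusted p = 0.0085 in the exact test), led by *Erc1* with 145 and 188, *Wnk1* with 25 and 86, and *Adipor2* with 17 and 68. In combinations listed in both, the values of *Wnt7a* (122 and 214 tags) and *Wnt5b* (187 and 280) were 0.73 and 0.50, and neither was called.

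The clustered loci *Wnt3a* and *Wnt9a* had 25 and 110 tags (3.80-fold) and 16 and 77 tags (4.15-fold). *Arf1*, a small GTPase of vesicle transport whose gene is close by, gave 17 and 49 tags at *Wnt3a*, *Rai1* gave 8 and 16, and *Mprip* 21 in H3K27me3-RADIP only. At *Wnt9a* in H3K27me3-RADIP, *Rai1* gave 23 tags over a median distance of 842 kb, *Mprip* 22 over 404 kb and *Arf1* 12, while *Mprip* with 16 was the one RNA listed there in Input. The *Wnt8a* locus had 9 and 45 tags, and *Wnt1* had 8 and 38. At *Wnt1* they came from *Arf3*, with 8 and 27, and *Kmt2d*, with 11 in H3K27me3-RADIP only. At *Wnt8a* the leading RNA was that of another member, *Apc*, with 9 and 16 pairs, and this was the only contact of a member RNA with the locus of another member in either library. *Brd8* with 11 tags and *Kdm3b* with 10 followed in H3K27me3-RADIP and were not listed there in Input.

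The *Wnt10a* locus was not listed in Input and had 69 tags of 6 RNAs in H3K27me3-RADIP, so it could not be tested. Its leading RNA, *Adam23* with 21 tags, came from a median distance of 11271 kb, and *Epha4* with 13 and *Agap1* with 9 were the next. *Wnt5a* (44 and 83 tags), *Wnt6* (22 and 46), *Wnt10b* (47 and 83), *Wnt11* (85 and 149), *Wnt4* (37 and 56) and *Wnt2b* (23 and 28) were not called. *Wnt2* stood alone, with no tag of another RNA in either library.

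**Figure D3:**
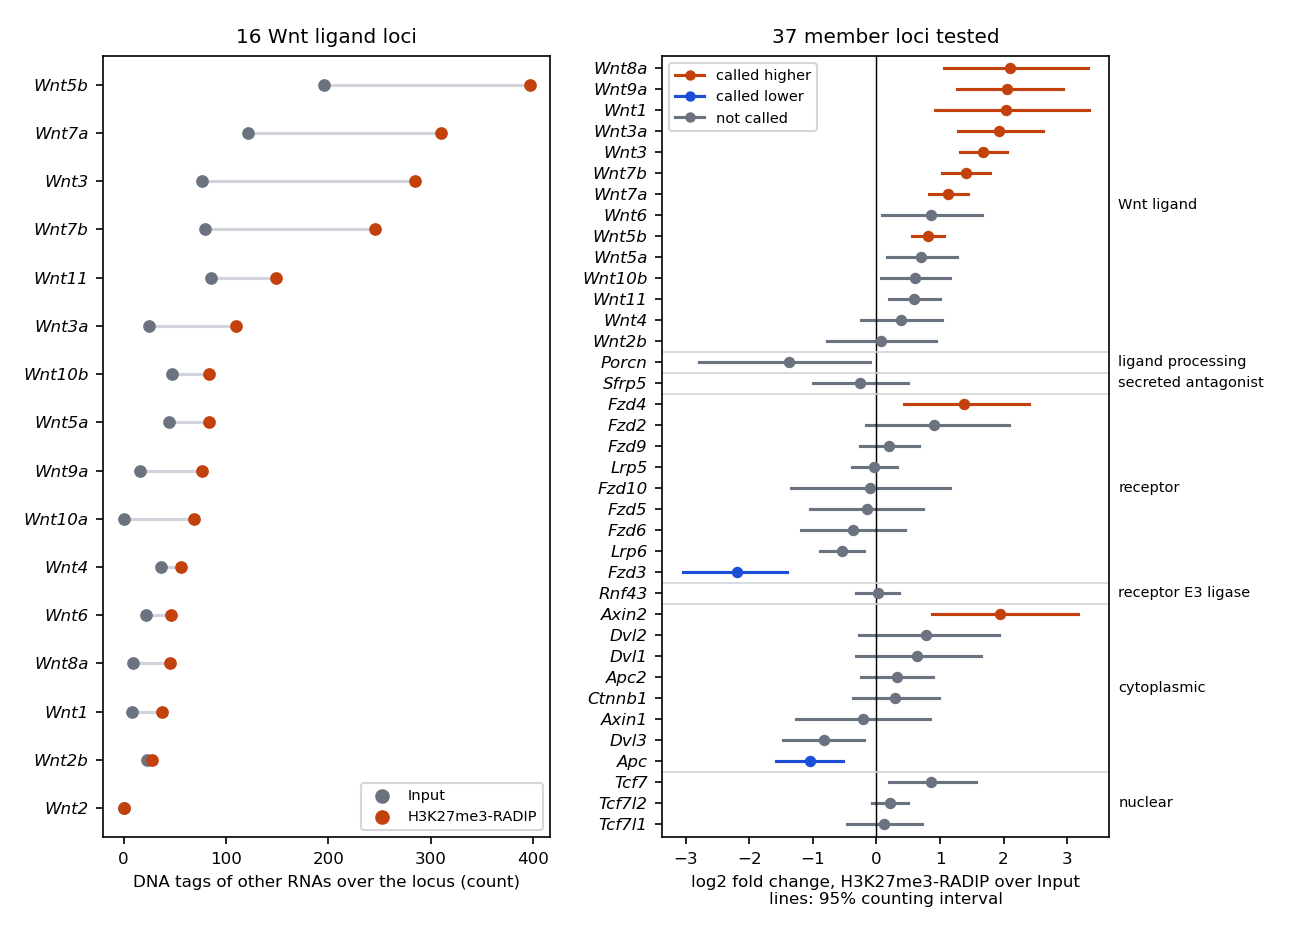
Left, DNA tags of RNAs other than the gene's own in the bins of each of the 16 Wnt ligand loci, in Input (grey) and H3K27me3-RADIP (orange). Right, the log2 fold change of such tags at the 37 member loci that could be tested, with 95% counting intervals. All 14 ligand loci tested lie above 0 and 8 of them were called higher. When only combinations listed in both tables were counted, 2 of 13 were. The 3 nuclear loci tested also lie above 0, with 0 called, whereas receptor and cytoplasmic loci lie on both sides of 0.

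DNA tags of any RNA, the gene's own included, were also counted in a narrow window, within 2.5 kb on either side of the annotated transcription start. Over the 16 ligand genes these windows held 96 tags in Input and 284 in H3K27me3-RADIP (2.80-fold, log2 ratio 1.49, interval 1.15 to 1.84). For the 15 receptor genes the counts were 58 and 107 (0.81, interval 0.33 to 1.29), and the intervals of the cytoplasmic genes (51 and 59 tags) and the nuclear genes (81 and 86 tags) included 0. In combinations listed in both tables, the ligand windows held 86 and 173 tags (log2 ratio 0.98, interval 0.60 to 1.37) and the receptor windows 44 and 82 (0.87, interval 0.32 to 1.43). Over all protein-coding genes, 5.80% of Input tags and 6.92% of H3K27me3-RADIP tags lay this close to a start. Among single ligand genes, *Wnt7a* had 22 and 54 tags, *Wnt5b* 16 and 45, *Wnt7b* 9 and 27, *Wnt9a* 2 and 25, *Wnt3* 7 and 24, and *Wnt3a* had none listed in Input and 16 in H3K27me3-RADIP. *Wnt6* went the other way, with 6 tags in Input and none listed in H3K27me3-RADIP, and the whole bin of its start had 22 tags in Input and none listed in H3K27me3-RADIP.

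**Figure D4:**
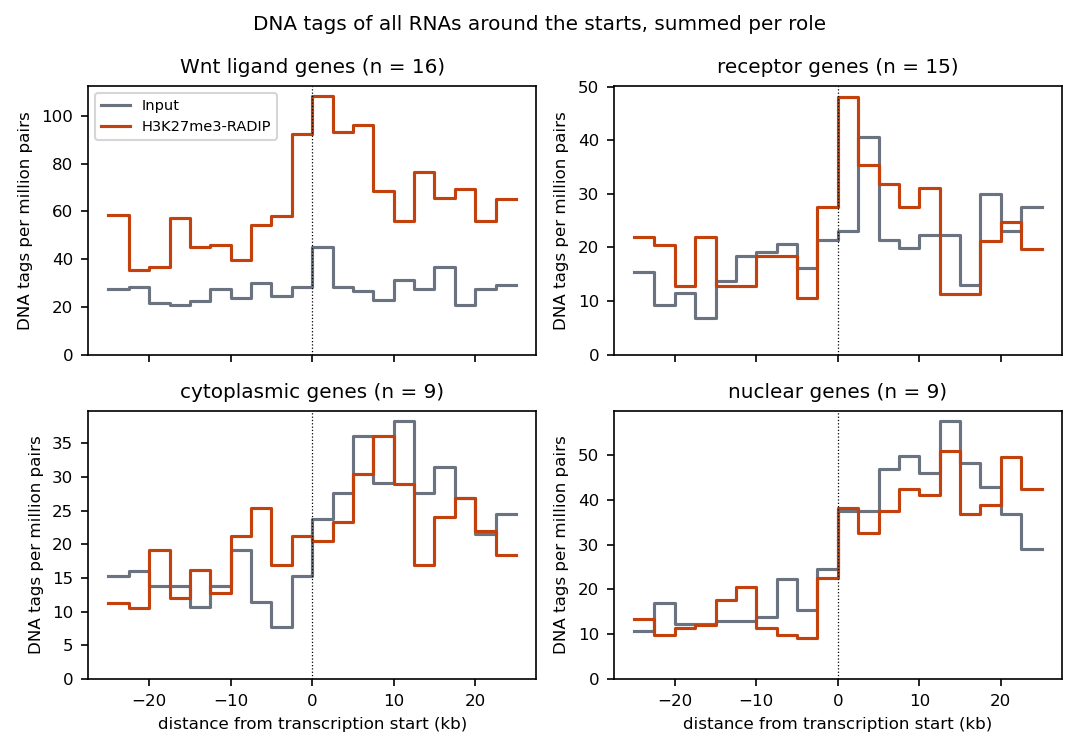
CPM of DNA tags of all RNAs (tags scaled to the total pairs of each table) in 2.5-kb windows from 25 kb before to 25 kb after the transcription start, summed over the genes of each role, in Input (grey) and H3K27me3-RADIP (orange). In H3K27me3-RADIP the ligand genes reached a CPM of 108 in the first window after the start, compared with 45.2 in Input; for cytoplasmic and nuclear genes the lines of the libraries cross several times.

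The sequences just upstream of the starts are shown for the 5 ligand genes that gained the most tags in these windows, among those with a RefSeq promoter in GRCm38.p6 (the patch release of the mm10 build), and for *Wnt2*, whose locus had no tags of other RNAs. Each runs 5′ to 3′ on the strand of the gene and ends before the annotated start. CpG dinucleotides are in capitals, since CpG-rich promoters are where H3K27me3 is known to be found in mESCs. The positions are chr6:91411364-91411603 (minus strand) for *Wnt7a*, chr6:119544348-119544597 (minus) for *Wnt5b*, chr11:59306680-59306927 (plus) for *Wnt9a*, chr11:103773925-103774149 (plus) for *Wnt3*, chr11:59290753-59291001 (minus) for *Wnt3a* and chr6:18030586-18030695 (minus) for *Wnt2*.
Wnt7a: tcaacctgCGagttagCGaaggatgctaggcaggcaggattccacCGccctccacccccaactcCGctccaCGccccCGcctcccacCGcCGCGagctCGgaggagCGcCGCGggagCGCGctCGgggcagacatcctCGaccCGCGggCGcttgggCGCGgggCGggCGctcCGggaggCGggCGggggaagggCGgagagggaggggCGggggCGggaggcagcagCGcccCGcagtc
Wnt5b: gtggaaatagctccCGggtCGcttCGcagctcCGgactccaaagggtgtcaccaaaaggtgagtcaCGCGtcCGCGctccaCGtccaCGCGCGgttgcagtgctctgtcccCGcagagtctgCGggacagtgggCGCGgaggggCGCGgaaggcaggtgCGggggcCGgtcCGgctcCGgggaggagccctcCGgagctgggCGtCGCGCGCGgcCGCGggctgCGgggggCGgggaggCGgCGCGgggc
Wnt9a: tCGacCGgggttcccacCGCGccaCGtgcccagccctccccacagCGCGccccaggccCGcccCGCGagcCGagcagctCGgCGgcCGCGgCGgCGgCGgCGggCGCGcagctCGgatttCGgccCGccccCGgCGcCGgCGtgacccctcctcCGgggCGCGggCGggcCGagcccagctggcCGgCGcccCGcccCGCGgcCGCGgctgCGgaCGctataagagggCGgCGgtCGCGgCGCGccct
Wnt3: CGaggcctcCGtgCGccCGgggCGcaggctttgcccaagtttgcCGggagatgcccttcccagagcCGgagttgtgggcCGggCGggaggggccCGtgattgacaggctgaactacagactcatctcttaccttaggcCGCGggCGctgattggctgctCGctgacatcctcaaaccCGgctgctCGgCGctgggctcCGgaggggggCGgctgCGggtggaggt
Wnt3a: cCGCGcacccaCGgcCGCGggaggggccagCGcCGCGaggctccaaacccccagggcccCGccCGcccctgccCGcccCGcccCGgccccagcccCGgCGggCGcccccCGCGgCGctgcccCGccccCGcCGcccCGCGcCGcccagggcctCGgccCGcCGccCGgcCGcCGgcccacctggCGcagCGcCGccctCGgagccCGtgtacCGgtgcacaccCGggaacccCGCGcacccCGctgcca
Wnt2: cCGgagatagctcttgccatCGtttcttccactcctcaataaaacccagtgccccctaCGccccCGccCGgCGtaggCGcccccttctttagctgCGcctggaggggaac

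The *Wnt9a* window held 48 CpG in 248 bases, the most of these 6, and 0.164% of all promoter windows, trimmed to that length, held as many. *Wnt3a* held 41 CpG (1.07% of windows), *Wnt5b* 35 (2.97%) and *Wnt7a* 32 (3.86%). *Wnt3* held 20 (13.6%) and the shorter *Wnt2* stretch 8 (15.9%). RefSeq windows matched 41 members, and in 38 of them the RefSeq start lay within 300 bases of the GENCODE start. The 250 bases upstream held a median of 34.5 CpG in 12 ligand genes, 25 in 9 receptor genes, 18 in 6 cytoplasmic genes and 29 in 7 nuclear genes, beside a median of 6 (quartiles 2 and 16) in all 32851 windows. The TCF/LEF core CTTTGA, searched on both strands, was found in 5 of the 38 windows (*Wnt11*, *Fzd1*, *Ror1*, *Gsk3b* and *Dkk1*), beside 13.8% of all windows.

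Among the receptor genes, *Ror2* and *Rnf43* were called higher, and no receptor RNA was called lower. *Ror2* (chr13:53109312-53286124, minus strand), a receptor tyrosine kinase for Wnt5a, had 459 Input pairs and 690 H3K27me3-RADIP pairs (log2 fold change 0.56, interval 0.38 to 0.73, adjusted p = 0.0927 in the exact test). Its call lay close to both limits and was lost with library totals in place of TMM (adjusted p = 0.172 in the exact test). The pairs filled 27 Input bins and 36 H3K27me3-RADIP bins, with 22 shared. The 3 bins that gained most went from 29 to 53 and from 22 to 44 pairs inside the gene and a bin upstream of it, not listed in Input, had 21. Beyond 1 Mb it had 5 Input pairs and 37 H3K27me3-RADIP pairs, the latter in 4 bins, which hold *Cltb*, *Faf2*, *Cdhr2* and *Sema4d* or no protein-coding gene.

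*Rnf43* (chr11:87662722-87735539, plus strand) encodes a membrane ubiquitin ligase that removes Frizzled from the cell surface and is itself a Wnt target. It had 10 pairs in Input, all in 1 bin, and 43 in H3K27me3-RADIP, in 4 bins that all overlap the gene (log2 fold change 2.07, interval 1.06 to 3.23, adjusted p = 0.00266 in the exact test). The bin listed in both had 10 and 11 pairs. The other 3 bins had 8, 10 and 14 pairs in H3K27me3-RADIP and were not listed in Input, so their Input pairs, up to the listing limit, are not known. Counting only the bin listed in both gave a log2 fold change of 0.19 (adjusted p = 1 in the exact test). A non-coding gene on the same strand, *1110028F11Rik*, lies within *Rnf43*, and tags of the shared stretch cannot be told apart. *Znrf3*, the related ligase, had 983 and 958 pairs and was not called (-0.07, interval -0.20 to 0.06).

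The co-receptor *Lrp6* had 293 Input pairs and 225 H3K27me3-RADIP pairs (log2 fold change -0.41, interval -0.67 to -0.16), and *Lrp5* had 225 and 248 (0.11, interval -0.16 to 0.37). *Ryk* had 279 and 227 pairs (-0.33, interval -0.59 to -0.07) and *Ror1* 123 and 173 (0.46, interval 0.12 to 0.81). None of these 4 was called. Of the 10 Frizzled genes, which encode the Wnt receptors proper, only *Fzd6* (21 and 18 pairs) and *Fzd5* (18 pairs in H3K27me3-RADIP only) were listed. None of the 18 *Fzd5* RNA tags was intronic, in a gene whose coding part has no intron.

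At the receptor loci, tags of other RNAs were called higher at *Fzd4*, with 13 and 39 (adjusted p = 0.0394 in the exact test), and lower at *Fzd3*, with 67 and 17 (adjusted p = 1.2e-05 in the exact test). *Fzd3* tags came from 5 RNAs in Input, led by *Elp3* with 22, *Kif13b* with 20 and *Ints9* with 9, and from 2 in H3K27me3-RADIP, *Ints9* with 9 and *Kif13b* with 8. At *Fzd4*, *Tmem135* gave 13 and 30 and *Tenm4* gave 9 in H3K27me3-RADIP only. When only combinations listed in both tables were counted, *Fzd4* had 13 and 30 tags (log2 fold change 1.12, beside 1.37 in all combinations) and *Fzd3* had 8 and 8 (-0.09, beside -2.19), and neither was called. The *Fzd1* and *Fzd7* loci had no DNA tag in either library, as was also seen at *Dkk1* and *Wif1*. *Fzd8* had no listed tag in Input and 13 tags in H3K27me3-RADIP.

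None of the cytoplasmic RNAs was called in either direction. *Gsk3b*, the kinase of the destruction complex, had 522 Input pairs and 538 H3K27me3-RADIP pairs (log2 fold change 0.01, interval -0.17 to 0.19). *Apc*, its scaffold, had 427 and 399 (-0.13, interval -0.33 to 0.07). *Ctnnb1*, which encodes beta-catenin, had 149 and 159 (0.06, interval -0.27 to 0.39), and *Axin1* had 134 and 137 (-0.00, interval -0.35 to 0.35).

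The Dishevelled genes, which relay the signal from the receptor, had 21 and 19 pairs (*Dvl1*) and 56 and 47 pairs (*Dvl2*, log2 fold change -0.29, interval -0.88 to 0.30), and *Dvl3* was not listed. *Axin2*, a feedback inhibitor and well-known target of the pathway, had 24 and 15 pairs in 1 shared bin. *Apc2* was not listed in Input and had 23 pairs in 1 bin in H3K27me3-RADIP, of which 30.4% had an intronic RNA tag. On the DNA side, tags of other RNAs at *Axin2* went from 9 to 40 (called higher, adjusted p = 0.00462 in the exact test), the largest part from *Pitpnc1* with 23, which was not listed there in Input, beside *Helz* with 9 in each library and *Cep112* with 8. At *Apc* they went from 89 to 50 (called lower, adjusted p = 0.0134 in the exact test), from *Epb41l4a* with 81 and 50 and *Fam13b* with 8 in Input only. When only combinations listed in both tables were counted, *Apc* had 42 and 50 tags and was not called, and *Axin2* could not be tested.

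In the nucleus, Tcf and Lef factors bind target genes, Tle proteins are their co-repressors, and Bcl9 proteins link beta-catenin to co-activators. *Lef1* was called higher and *Tle1* lower. *Lef1* (chr3:131110471-131224356, plus strand) had 18 Input pairs and 52 H3K27me3-RADIP pairs (log2 fold change 1.50, interval 0.70 to 2.36, adjusted p = 0.0138 in the exact test). Its bins went from 2 to 5, and all 5 overlap the gene. The 3 bins with the largest gains had 13, 9 and 7 pairs in H3K27me3-RADIP and were not listed in Input, while the 2 shared bins had 10 and 15, and 8 and 8. Counting only the shared bins gave a log2 fold change of 0.41 (adjusted p = 1 in the exact test). *Gm42449* overlaps *Lef1* on the same strand, so tags of the shared stretch cannot be told apart. Intronic tags made up 72.2% of its pairs in Input and 96.2% in H3K27me3-RADIP.

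*Tle1* (chr4:72117142-72200919, minus strand) had 114 and 68 pairs (log2 fold change -0.78, interval -1.23 to -0.33, adjusted p = 0.0845 in the exact test). Its 3 bins with the largest losses had 37 and 21 pairs, 25 and 15 pairs, and 11 pairs in a bin that H3K27me3-RADIP did not list. *Tle4* had the most pairs of all members in Input, 1994, and 1431 in H3K27me3-RADIP (-0.51, interval -0.61 to -0.41). With an adjusted p of 0.104 in the exact test it lay just outside the limit of 0.1, and it was called lower under several alternatives. The largest differences lay inside the gene, where 3 bins went from 148 to 73, from 143 to 68 and from 135 to 70 pairs.

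*Tle3* had 882 and 1233 pairs (log2 fold change 0.45, interval 0.33 to 0.58, adjusted p = 0.177 in the exact test, not called). Per kb of gene it had the highest level of all members, 19.1 pairs in Input and 26.7 in H3K27me3-RADIP, followed in Input by *Tle4* with 13.3 and *Tcf7l1* with 9.79. The order of the last 2 turned in H3K27me3-RADIP, with 9.55 for *Tle4* and 11.9 for *Tcf7l1*. *Tcf7l1*, the repressor of pluripotency genes in mESCs also known as Tcf3, had 1595 and 1935 pairs (0.25, interval 0.15 to 0.34), and *Tcf7l2* had 496 and 642 (0.34, interval 0.17 to 0.51). *Tcf7* had 57 and 60 pairs (0.04, interval -0.51 to 0.59), *Bcl9* 43 and 43, and *Bcl9l* 43 and 46. None of these was called.

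The genes differed in the distances of their listed pairs. A distant contact is listed only where its RNA–bin combination passed the limit, so genes with few pairs could hardly show one. Over all members, 42.5% of pairs in Input (95% Wilson interval 41.5 to 43.5) were long-range, compared with 48.2% in H3K27me3-RADIP (47.2 to 49.2); long-range pairs have more than 100 kb between the tags. Over all pcRNAs the shares were 36.4% and 43.7%. Distance runs from tag to tag, so a pair within a long gene can count as long-range. Measured from the end of the gene body, the members' shares were 31.6% in Input and 36.7% in H3K27me3-RADIP. Of the 23 members that reached 20 *cis* pairs in each library, 8 had a higher long-range share in H3K27me3-RADIP and 0 a lower one, by Fisher's exact test with Benjamini–Hochberg adjustment over 5264 pcRNAs. The same test called 28.2% of all pcRNAs higher and 3.84% lower, so the members again lay near the background.

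The 8 were *Sfrp1*, *Znrf3*, *Axin1*, *Apc*, *Gsk3b*, *Tcf7l1*, *Tle3* and *Tle4*. The largest difference was that of *Gsk3b*, from 38.3% to 50.4%, with an adjusted p of 0.000773 in the exact test. *Apc* went from 40.7% to 52.1% and *Sfrp1* from 23.9% to 35.0%. *Axin1* had no listed long-range pair among 134 in Input and 8.03% in H3K27me3-RADIP, all in a bin that holds *Neurl1b*. *Znrf3* went from 51.2% to 59.2%, *Tle4* from 53.0% to 59.6%, *Tle3* from 49.7% to 56.1% and *Tcf7l1* from 54.1% to 59.9%. Along with this, fewer of their DNA tags lay in the gene itself: for *Axin1* 65.7% and 40.9%, for *Gsk3b* 54.0% and 41.3%, and for *Tle4* 40.9% and 32.4%.

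**Figure D5:**
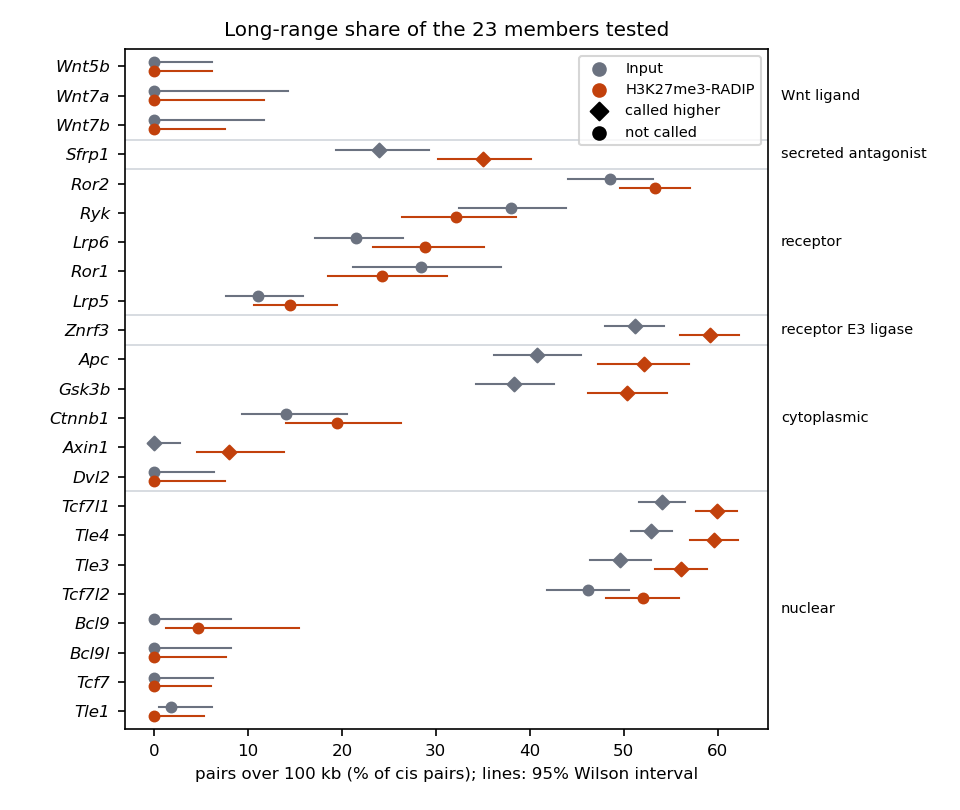
Share of *cis* pairs with more than 100 kb between RNA and DNA tag for the 23 members tested, in Input (grey) and H3K27me3-RADIP (orange), with 95% Wilson intervals; diamonds mark the 8 members called higher. The nuclear genes *Tcf7l1*, *Tle4* and *Tle3* lie near 50 to 60% in both libraries, and the Wnt ligand RNAs, which have few pairs, at 0.

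*Ror2*, which was called higher in pairs, had long-range shares of 48.6% and 53.3% (adjusted p = 0.302, Fisher's exact test), and *Lef1* and *Rnf43* had too few pairs in Input for the test. Weighting each of the 31 members with at least 10 pairs in both libraries equally, the mean long-range share was 17.2% for Input, compared with 19.7% for H3K27me3-RADIP.

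Pairs beyond 1 Mb were found for 5 members only: *Ror2*, *Sfrp1*, *Znrf3*, *Tcf7l1* and *Tle4*. They numbered 234 in Input and 440 in H3K27me3-RADIP, which is 2.48% and 4.39% of the members' pairs, beside 4.48% and 7.04% over all pcRNAs. *Tcf7l1* had 36 such pairs in 5 bins in Input and 175 in 19 bins in H3K27me3-RADIP. In H3K27me3-RADIP these included bins at *Eif2ak3* (15 and 11 pairs, in 2 bins), *Cd8a* (15), *Thnsl2* (14) and *Foxi3* (10), none of which was listed in Input. In 7 of its 19 bins the DNA tag lay more than 5 Mb from the start, among them bins at *Eva1a* and *Tet3* with 8 pairs each, and the farthest pair spanned 40362 kb in H3K27me3-RADIP, compared with 42969 kb in Input. These bins hold counts just above the smallest that the tables list, so single bins are at the limit of what the depth can show.

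*Tle4* had 185 pairs beyond 1 Mb in Input and 217 in H3K27me3-RADIP, in 19 and 21 bins, among them bins at *Psat1* and *Cep78* in both libraries. *Znrf3* had 11 in H3K27me3-RADIP only, in a bin with *Sf3a1* and *Tbc1d10a*, and *Sfrp1* had 8 in Input only.

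RNA tags of the members were mostly intronic, 90.8% in Input (95% Wilson interval 90.2 to 91.4) and 91.4% in H3K27me3-RADIP (90.8 to 91.9), beside 88.9% and 89.6% over all pcRNAs. Some members had fewer: *Dvl2* had 41.1% and 46.8% intronic tags with 33.9% and 29.8% in the 3′ untranslated region. For *Wnt2* 55.6% of the 9 tags were intronic and 44.4% coding. *Tle3* had 82.0% and 81.1% intronic tags.

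The other genes of the pathway were read from lists of 74 genes. Of these, 46 were listed in Input and 50 in H3K27me3-RADIP, and of the 45 shared, 6 were called higher and 3 lower, beside 6.77% and 7.69% of all shared pcRNAs. The higher ones were *Celsr1* (152 and 246 pairs) and *Celsr2* (9 and 31), cadherins of planar polarity, *Btrc* (323 and 514), which marks beta-catenin for destruction, *Daam2* (11 and 50), a formin, *Map3k7* (158 and 283), a kinase, and the target gene *Ccnd1* (17 and 50). The lower ones were *Lgr4* (383 and 245), an R-spondin receptor, *Invs* (44 and 18), which takes part in planar polarity, and *Tnks2* (220 and 133), which destabilises Axin. At their loci, 8 of 40 were called higher and 6 lower, beside 13.7% and 11.9% of all loci, with a median log2 fold change of -0.03. Among the other ligands and secreted modulators, 3 of 9 loci were called higher and 0 lower, beside the same 13.7% and 11.9%, and the median log2 fold change was -0.03. The 3 were the ligand *Wnt9b* (20 and 50 tags of other RNAs), *Rspo1* (38 and 84) and *Dkk3* (93 and 167). These locus calls counted combinations listed in either table.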

How the data were processed

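RNA–DNA interaction pairs were measured in 8 Input and 8 H3K27me3-RADIP libraries of PGK12.1 mESCs, and the paper describes 4 biological replicates for each group. Input was a part of each lysate, so the groups were paired, but the merged tables allow no paired test. The authors split reads at the adaptor, mapped both sides to mm10, kept uniquely mapped pairs, annotated RNA tags with GENCODE, assigned DNA tags to 25-kb bins, removed blacklisted regions, and fitted a modified CHiCANE model. The authors deposited 1 merged table per group that gives each RNA–bin combination a q-value from this model, at most 0.1. The submitters' processing notes name BWA 0.7.15-r1140, STAR 2.5.0a and CASAVA 1.8.2. The largest deposited q-value was 0.0999 in Input and 0.1 in H3K27me3-RADIP, and 6.79% and 9.74% of lines repeated tag positions of another line.

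Lines were counted per RNA name, per bin and per gene locus with Python 3.11.15, numpy 2.4.6, pandas 2.3.3 and scipy 1.17.1. Plots were drawn with matplotlib 3.10.9. Gene positions came from GENCODE vM21, an older release than the authors used, and promoter sequences from RefSeq (GRCm38.p6). Counts were scaled by TMM and compared by a negative binomial exact test, with the coefficient of variation set to 0.1. A call needed an adjusted p up to 0.1 and a log2 fold change of 0.5 or more in size, but the distance test needed the adjusted p alone. Tested on simulated data with 4-fold changes in 199 of 8158 pcRNAs, 84.4% were found and 7 unchanged RNAs were called. In the simulated distance test over 5264 pcRNAs, 84% were found. The simulated counts had the same variation of 0.1 that the test assumes, and no listing limit. Simulated pairs in the distance test were independent of each other. The simulations therefore check the code and cannot show how many calls in the real tables are false. Pairs of a combination are not independent, so all intervals are too narrow, and p-values compare 2 merged libraries rather than conditions.

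The members and lists were chosen with earlier results of these data known. Full values were given for members with at least 50 pairs in either library, members called, and members listed in 1 library only, along with the 3 RNAs with the most tags at a described locus and the 3 bins of each called member with the largest change.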

Additional observations from a re-analysis of the deposited data

How the results depend on the processing

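Calls of member RNAs depended on the settings. Called higher and lower were 6 and 2 at a *q*-value of at most 0.01. The count of lower calls was 2 with repeated tag positions counted once, with library totals, with an assumed variation of 0.05 and with at least 20 pairs over both libraries, each time with *Tle4* added to *Tle1*. It was 0, as were the higher calls, with an assumed variation of 0.2 (2 members at an unadjusted p under 0.05) or 0.4 (1 member), and with combinations in both libraries only (3 members), which was added once the data had been seen. The 8 ligand loci called higher became 0 with an assumed variation of 0.4, where none of all loci was called and 3 ligand loci had an unadjusted p under 0.05, and 2 with combinations in both libraries only, where 6 had one. Weighting members equally gave a long-range difference of 2.56 points in place of 5.76 and an intronic difference of 2.43 points in place of 0.53. Without *Tcf7l1* the members held 0.601% of Input and 0.572% of H3K27me3-RADIP.

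The log2 ratio of DNA tags at ligand genes was 1.28 for RNAs other than the gene's own, 1.25 in the bin of the start, 1.49 within 2.5 kb of it and 0.70 with combinations in both libraries only. For receptor genes the bin of the start gave 0.20 and the window within 2.5 kb of it 0.81. For cytoplasmic genes the first 3 settings gave 0.079, -0.025 and 0.13. For nuclear genes the first and the third gave 0.28 and 0.0081, so that the sign turned in both these groups. The cause was not tested. The settings within 2.5 kb of the start were added in the same way, as were all those of the ligand loci called. Among the main values set against their alternatives, 39 stayed within the limits set for them, 25 moved and 4 turned sign. No paired analysis was possible because the libraries of each group were merged into 1 table, although Input and H3K27me3-RADIP shared lysates. Bins and genes with counts near 7 pairs are at the limit of the depth.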

Other observations

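Loci of developmental regulators used as markers of other cell types were read in the same test of DNA tags of other RNAs. That test counted combinations listed in either table and rests on the assumed variation. When only combinations listed in both tables were counted, 0.29% of all 10697 gene loci were called higher and 0.168% lower. The loci below were not examined in that count or with a larger assumed variation, so their calls may not hold there. Among primitive endoderm markers 3 of 4 loci tested were called higher in H3K27me3-RADIP, among trophectoderm markers 2 of 4, among neural progenitor markers 2 of 3, and among fibroblast markers 0 of 2, with 0 lower in each, beside 13.7% of all loci called higher and 11.9% lower. *Gata4*, a primitive endoderm factor, had a log2 fold change of 2.09 (counting interval 1.35 to 2.91) and *Sox1*, a neural factor, 1.01 (0.61 to 1.41). Among embryonic stem cell markers 0 of 9 loci were called higher and 2 lower, *Sox2* with -1.01 (-1.70 to -0.35) and *Tfcp2l1* with -0.97 (-1.34 to -0.61). Among the 5 nuclear Wnt genes outside the members whose loci could be tested, 3 were called lower, *Chd8*, *Ep300* and *Crebbp*, with log2 fold changes of -1.78, -2.18 and -1.42, and 1 was called higher, *Ctnnbip1*, with 0.91 (0.41 to 1.43).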
